A study of Homo sapiens with 18 samples.

Results

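The glioblastoma line T98G was compared between cells treated with a guide against DDA1 (sgDDA1, the usual notation for a CRISPR single guide) and cells treated with a control guide (sgCon), with 3 libraries in each group. These 6 RNA-seq libraries are those titled T98G sgDDA1 and T98G sgCon, out of 18 libraries from 3 glioblastoma lines, and were fitted on their own. Of 46218 gene IDs, 19438 passed the filter on low counts and were tested. Both groups were kept in the same medium, DMEM containing serum (10% FBS), RNA was extracted with Trizol, and the guide is the one labelled difference between them. The labels give neither the guide sequence, nor the nuclease, nor the time after delivery, nor whether the cells were a clone or a pool. Nor do they say if replicate libraries derive from independent cultures. The p-values here therefore rest on library-to-library spread alone, part or all of which may be technical.

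The DDA1 protein is short and attaches to DDB1, which serves the CRL4 ubiquitin ligases as adaptor. In these ligases the scaffolds CUL4A and CUL4B hold DDB1, which recruits a substrate receptor called a DCAF, and the substrate is then marked with ubiquitin. The COP9 signalosome switches the ligases off by removing NEDD8 from the cullin. DDA1 also takes part in the complex of DET1 and the ubiquitin ligase COP1. The series' title concerns DDA1 in mTORC1 signalling, DNA repair and glioblastoma progression.

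Depth was even. Counts per library summed to 49.6 to 54.1 M, and a floor of 3 counts stood at up to 0.0614 CPM (counts scaled to library size with TMM factors), covering counting error only. Replicates correlated at 0.997 or more on the log2 scale, and the first principal component, with 77.0% of the variance, put the groups apart. The labels call the cells glial. Markers of the mesenchymal glioblastoma state summed to 8056 to 8109.7 CPM in sgDDA1 and 9182 to 9193 CPM in sgCon. Of 22 tested, 7 were higher and 13 lower (31.8% higher, 59.1% lower), with log2 fold changes from -1.89 to 1.59. Among them CD44 stood at 1754 CPM in sgDDA1 and 2217 CPM in sgCon, and the intermediate filament gene VIM at 588 CPM in sgDDA1 and 835 CPM in sgCon. Astrocyte and neural progenitor markers summed to 454 to 457 CPM in sgDDA1 and 435 to 463 CPM in sgCon. Of 22 tested, 9 were higher and 4 lower (40.9% higher, 18.2% lower), against 26.5% higher and 26.1% lower among all genes tested. SOX9, a glial transcription factor named after its values were seen, stood at 129 CPM in sgDDA1 and 88.8 CPM in sgCon, while GFAP and OLIG2 were under 1 CPM in both groups. Lymphocyte markers summed to 0.286 to 0.812 CPM in sgDDA1 and 0.236 to 0.625 CPM in sgCon, with CD3E at 0. In bulk samples fewer cells of a type and less RNA per cell cannot be told apart. Macrophage and microglia markers summed to 5.56 to 6.14 CPM in sgDDA1 and 6.75 to 8.37 CPM in sgCon, with AIF1 at 0. Endothelial markers summed to 4.03 to 5.08 CPM in sgDDA1 and 7.52 to 7.92 CPM in sgCon. Fibroblast and pericyte markers summed to 609 to 629 CPM in sgDDA1 and 708 to 749.9 CPM in sgCon. Of 12 tested, 3 were higher and 3 lower (25% higher, 25% lower), near the shares among all genes. Epithelial markers, mostly counts of KRT18, summed to 72.5 to 76.0 CPM in sgDDA1 and 96.7 to 101 CPM in sgCon. Neuron markers, mostly counts of SNAP25, summed to 19.5 to 19.6 CPM in sgDDA1 and 14.1 to 16.1 CPM in sgCon. The part of other cell types in the results was not tested.

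The targeted transcript itself moved little. DDA1 (ENSG00000130311, GRCh38 chromosome 19, 17309518 to 17323301, plus strand) had 53.5, 56.6 and 52.5 CPM in sgDDA1, against 57.9, 64.5 and 63.3 CPM in sgCon. Every sgDDA1 library lay below every sgCon library, and the sgDDA1 mean was 87.6% of the control mean. The log2 fold change was -0.19 (SE 0.04, edgeR adjusted p = 0.000623), and an exact two-sided permutation test of the 6 values gave p = 0.1, the smallest that 3 libraries against 3 allow. The call did not hold in a fit over all 18 libraries (adjusted p = 0.197) or in a test against a fold of 1.2 (adjusted p = 1). Edits in an open reading frame can leave mRNA levels intact, and DDA1 protein was not analysed here, so the transcript gives only a weak check of the labels.

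A minority of the core ligase genes moved, in both directions. Of 20 core ligase and COP9 signalosome genes, 2 were called higher and 5 lower, against 26.5% higher and 26.1% lower among all genes tested. CUL4A fell, with 139, 134 and 136 CPM in sgDDA1, against 163, 168 and 169 CPM in sgCon (log2 fold change -0.29, SE 0.03, adjusted p = 1.43e-08). Its paralogue CUL4B rose slightly, with 155, 153 and 149 CPM in sgDDA1, against 139, 137 and 145 CPM in sgCon (log2 fold change 0.12, SE 0.03, adjusted p = 0.00272). The largest change in the group was that of COPS8, a signalosome subunit, at 227 CPM in sgDDA1 and 163 CPM in sgCon (0.47, SE 0.03). DDB1 stood at 333 CPM in sgDDA1 and 347 CPM in sgCon (-0.06, adjusted p = 0.0788) and was not called, though DESeq2 gave it an adjusted p of 0.0294. CUL4B was not called when scaled by library totals alone (adjusted p = 0.0605). Among 21 DCAF genes, 10 were higher and 6 lower (47.6% higher, 28.6% lower). DTL, the receptor that targets CDT1 in S phase, fell to 131 CPM in sgDDA1, against 168 CPM in sgCon (-0.36, SE 0.03), and DCAF5 rose to 85.5 CPM in sgDDA1, against 59.8 CPM in sgCon (0.52, SE 0.04).

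Across all genes the groups differed widely and in both directions. By edgeR's quasi-likelihood test with an adjusted p under 0.05, 10215 of 19438 genes were called (52.6%), 5147 of them higher and 5068 lower in sgDDA1. This balance moved with the scaling, with 4456 higher and 5914 lower by library totals alone and 5558 higher and 4652 lower by upper-quartile scaling. An unadjusted p under 0.05 was found for 57% of genes, and the groups did not overlap for 58.2%. At 2-fold or more, 876 genes (4.51%) were higher and 786 (4.04%) lower. The median log2 fold change over all genes was 0.01. Replicates differed by a median coefficient of variation of 3.19% in sgDDA1 and 3.25% in sgCon among genes of at least 10 CPM, so small differences passed the test, and 30.7% of the called genes changed by less than 1.2-fold. In a test against that fold, 4788 genes were called.

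**Figure D1:**
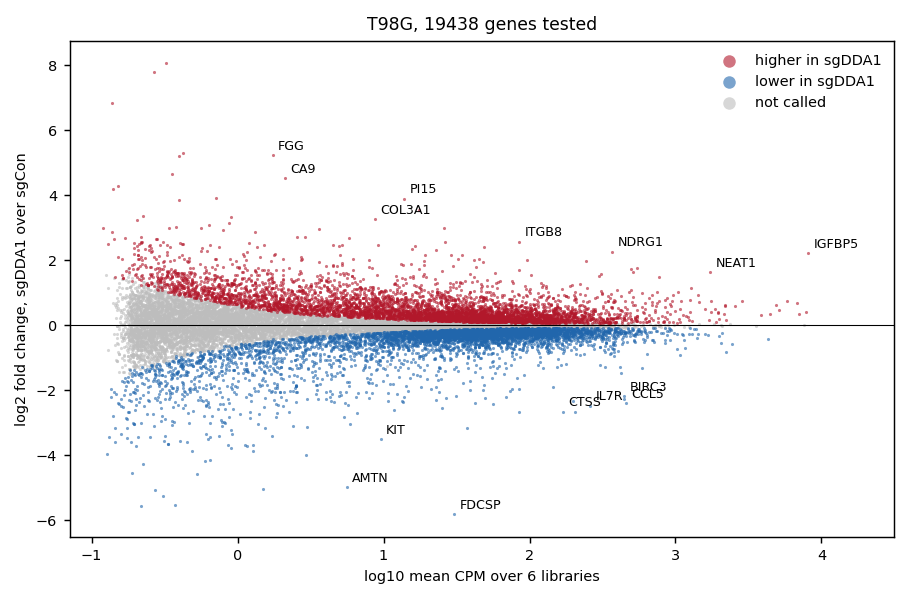
Each point is 1 of 19438 genes. The horizontal axis is the log10 mean CPM over the 6 libraries and the vertical axis the log2 fold change of sgDDA1 over sgCon. Red points were called higher in sgDDA1, blue points lower and grey points neither. Calls lie on both sides at every level, and IGFBP5, at 13294 CPM in sgDDA1 and 2858 CPM in sgCon, is a large rise in a very abundant transcript.

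The largest rises among protein-coding genes of at least 1 CPM were in genes low or nearly silent in the control cells. FGG, the fibrinogen gamma chain, had 3.51, 3.52 and 3.12 CPM in sgDDA1, against 0.146, 0.0735 and 0.0388 CPM in sgCon (log2 fold change 5.24, SE 0.29, adjusted p = 3.01e-14). CA9, a cell surface carbonic anhydrase known as a hypoxia marker, had 3.68, 4.13 and 4.36 CPM in sgDDA1, against 0.182, 0.184 and 0.155 CPM in sgCon (log2 fold change 4.53, SE 0.22, adjusted p = 3.44e-15). In both genes all sgDDA1 libraries were above 3 CPM and all sgCon libraries near or below 0.2 CPM. SERPING1, the C1 complement inhibitor, had 6.68, 6.55 and 5.90 CPM in sgDDA1, against 1.04, 0.699 and 0.678 CPM in sgCon (log2 fold change 2.98, SE 0.16, adjusted p = 1.71e-14). The transcript of ADGRV1, a very large adhesion receptor, had 8.43, 11.01 and 10.7 CPM in sgDDA1, against 1.46, 1.45 and 1.76 CPM in sgCon (log2 fold change 2.69, SE 0.13, adjusted p = 2.45e-15). These groups were far apart and the spread within each was small. Groups that do not overlap were a condition for naming the largest rises and falls. At a higher level, ITGB8, the integrin beta subunit that with alpha-V releases active TGF-beta, had 149, 146 and 143 CPM in sgDDA1, against 24.8, 24.3 and 24.3 CPM in sgCon (log2 fold change 2.58, SE 0.04, adjusted p = 3.42e-26). The neutral amino acid transporter SLC6A15 had 44.6, 46.2 and 44.2 CPM in sgDDA1, against 7.84, 7.32 and 7.65 CPM in sgCon (log2 fold change 2.56, SE 0.06, adjusted p = 2.14e-22). The other rises in this set were PI15 (3.89), RANBP3L (3.56), the fibrillar collagen COL3A1 (3.27), the synaptic organiser CBLN2 (2.99), the linker histone H1-3 (2.89) and SSPOP (2.72), all as log2 fold changes.

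The largest falls took several transcripts to about 1 CPM or below. FDCSP, a secreted peptide of follicular dendritic cells, had 1.24, 0.982 and 1.01 CPM in sgDDA1, against 60.0, 65.05 and 55.5 CPM in sgCon (log2 fold change -5.80, SE 0.09, adjusted p = 6.74e-26). AMTN, an enamel matrix protein encoded on the same arm of chromosome 4, had 0.264, 0.491 and 0.276 CPM in sgDDA1, against 11.4, 10.5 and 10.7 CPM in sgCon (log2 fold change -4.98, SE 0.16, adjusted p = 5.72e-19). KIT, the receptor for stem cell factor, had 2.13, 1.39 and 1.12 CPM in sgDDA1, against 18.0, 18.3 and 16.4 CPM in sgCon (log2 fold change -3.51, SE 0.13, adjusted p = 1.56e-17). In KIT the lowest control library was above 16 CPM and the highest sgDDA1 library near 2 CPM. SLC16A6, a monocarboxylate transporter family member, had 6.28, 8.76 and 7.34 CPM in sgDDA1, against 66.5, 68.9 and 64.6 CPM in sgCon (log2 fold change -3.16, SE 0.07, adjusted p = 1.19e-22). The sialyltransferase ST8SIA4, which makes polysialic acid, had 0.569, 0.348 and 0.908 CPM in sgDDA1, against 6.35, 5.04 and 4.73 CPM in sgCon (log2 fold change -3.13, SE 0.21, adjusted p = 1.43e-12). The remaining falls were SERPINB7 (-5.02), the oxysterol receptor GPR183 (-3.86), ADGRL4 (-3.71), FGFBP1 (-3.68), the nucleoside transporter SLC28A3 (-3.15), the ubiquitin ligase MARCHF4 (-3.10) and TMEM200C (-3.05), as log2 fold changes.

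**Figure D2:**
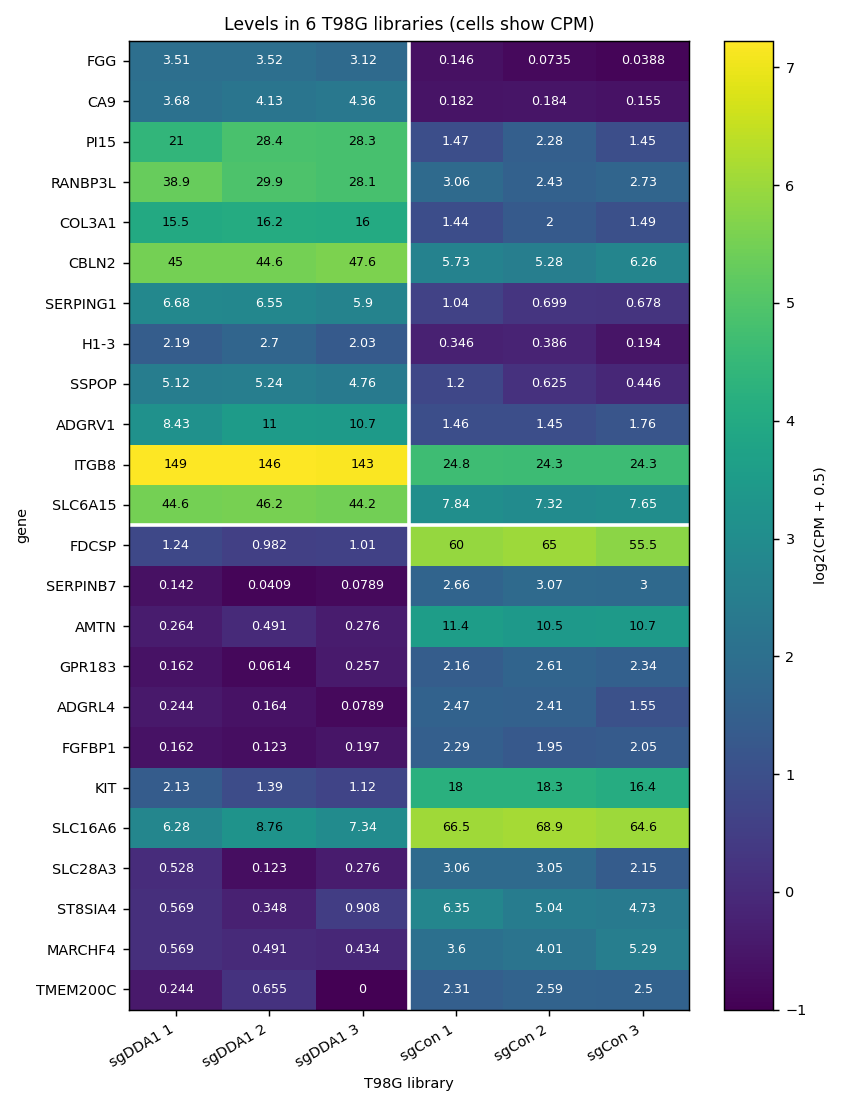
Rows are the 12 largest rises and the 12 largest falls, columns the 3 sgDDA1 and the 3 sgCon libraries of T98G. Colour gives log2(CPM + 0.5) and each cell its CPM. Within a row the 3 libraries of a group resemble each other. No sgDDA1 value overlaps a sgCon value, because the genes were chosen by that rule, which 58.2% of all genes tested meet.

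Among abundant genes, with a mean of at least 100 CPM, the changes were smaller in fold but large in transcripts. IGFBP5, a secreted binder of insulin-like growth factors, had 13659.5, 13346 and 12876 CPM in sgDDA1, against 2903, 2930.4 and 2741 CPM in sgCon (log2 fold change 2.22, SE 0.03, adjusted p = 8.58e-27). NDRG1, a stress and hypoxia gene, had 589, 642 and 595 CPM in sgDDA1, against 129, 133 and 117 CPM in sgCon (log2 fold change 2.27, SE 0.04, adjusted p = 1.55e-24). The orphan nuclear receptor NR2F1 had 899, 837 and 808 CPM in sgDDA1, against 244, 255 and 245 CPM in sgCon (log2 fold change 1.77, SE 0.03, adjusted p = 9.43e-24). In all 3 genes the sgDDA1 libraries were far above the sgCon libraries, in a set chosen for groups that do not overlap. The phosphodiesterase PDE5A (769 CPM in sgDDA1 against 248 CPM in sgCon), the GABA receptor subunit GABRA2 (465 CPM in sgDDA1 against 154 CPM in sgCon), the DKK1 receptor KREMEN1 (152 CPM in sgDDA1 against 52.0 CPM in sgCon), the secreted glycoprotein STC1 (388 CPM in sgDDA1 against 98.01 CPM in sgCon) and the interferon-induced membrane protein IFITM1 (757 CPM in sgDDA1 against 228 CPM in sgCon) completed the 8 largest rises.

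The largest falls at this level included proteases, their inhibitors and surface receptors. CTSS, a lysosomal protease of antigen processing, had 49.2, 46.5 and 42.9 CPM in sgDDA1, against 285, 297 and 295 CPM in sgCon (log2 fold change -2.66, SE 0.04, adjusted p = 3.57e-26). TFPI2, a Kunitz-type protease inhibitor, had 56.6, 58.0 and 53.2 CPM in sgDDA1, against 357, 363 and 333 CPM in sgCon (log2 fold change -2.65, SE 0.04, adjusted p = 3.42e-26). IL7R, the interleukin 7 receptor, had 80.7, 79.3 and 77.8 CPM in sgDDA1, against 430.5, 446 and 442 CPM in sgCon (log2 fold change -2.47, SE 0.03, adjusted p = 5.98e-27). In each of these every sgDDA1 library was far below every sgCon library, again in a set chosen for groups that do not overlap. The proteoglycan SPOCK1 fell to 66.4 CPM in sgDDA1, against 331 CPM in sgCon, the thrombin inhibitor SERPINE2 to 155 CPM in sgDDA1 against 739 CPM in sgCon, and the tetraspanin CD82 to 61.3 CPM in sgDDA1 against 226 CPM in sgCon. The chemokine CCL5 and the apoptosis inhibitor BIRC3 also belonged to these 8.

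Hypoxia genes rose, and with them the glycolytic enzymes. Cells sense oxygen through prolyl hydroxylases (EGLN genes) that mark the HIF alpha subunits for destruction by VHL, and HIF dimers bind a short core sequence, ACGTG, near their targets. Of 41 hypoxia genes tested, 35 were called higher and 5 lower, against 26.5% higher and 26.1% lower among all genes, with a median log2 fold change of 0.65 against 0.01 over all genes. HIF1A itself had 641, 639 and 641 CPM in sgDDA1, against 323, 313 and 313 CPM in sgCon (log2 fold change 1.02, SE 0.03, adjusted p = 1.47e-20). EPAS1, which encodes HIF-2 alpha, had 297, 292 and 285 CPM in sgDDA1, against 146, 151 and 152 CPM in sgCon (log2 fold change 0.96, SE 0.03, adjusted p = 3.28e-19). In both genes every sgDDA1 library was well above every sgCon library. The growth factor VEGFA rose to 167 CPM in sgDDA1, against 106 CPM in sgCon (0.65, SE 0.03). CA12, another membrane carbonic anhydrase, had 149, 161 and 152 CPM in sgDDA1, against 38.8, 37.8 and 37.7 CPM in sgCon (log2 fold change 2.02, SE 0.04, adjusted p = 4.35e-24). EGLN3, one of the hydroxylases and itself a HIF target, rose to 58.2 CPM in sgDDA1, against 19.6 CPM in sgCon (1.57, SE 0.05). PPFIA4 (2.49) and FAM162A (1.31) rose too.

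The promoters of CA9 and LDHA are shown because both genes rose and hold the hypoxia core, set in capitals on either strand. They run from 250 bases before to 50 after the transcription start, 5′ to 3′ in the direction of the gene (RefSeq, GRCh38.p14).
CA9, chr9:35673678-35673977, plus strand: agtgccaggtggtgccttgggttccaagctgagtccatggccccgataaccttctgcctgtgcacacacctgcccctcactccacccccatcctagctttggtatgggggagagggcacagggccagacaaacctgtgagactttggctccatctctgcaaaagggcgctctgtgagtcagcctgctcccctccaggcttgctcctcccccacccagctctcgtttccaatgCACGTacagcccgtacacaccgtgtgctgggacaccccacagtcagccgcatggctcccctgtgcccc
LDHA, chr11:18394313-18394612, plus strand: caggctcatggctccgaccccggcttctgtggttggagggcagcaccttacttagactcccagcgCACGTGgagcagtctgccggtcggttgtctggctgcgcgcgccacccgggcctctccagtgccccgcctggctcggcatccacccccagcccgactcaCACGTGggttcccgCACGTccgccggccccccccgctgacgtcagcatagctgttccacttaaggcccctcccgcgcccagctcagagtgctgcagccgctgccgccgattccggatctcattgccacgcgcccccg
ACGTG or its reverse complement stood in 17 of 28 promoters of hypoxia genes called higher (60.7%), in 35.0% of 20 promoters of glycolysis genes called higher and in 26.1% of the 12041 promoters of genes tested. It overlaps the motif CCACG where they stand as CCACGTG. Among genes called lower, ACGTG stood in 50% of 28 endoplasmic reticulum folding, 50% of 10 immediate early and 41.7% of 12 protease promoters. In NF-kB genes and chemokines called lower it stood in 12% of 25 and 11.1% of 18. The hypoxia list was written from known hypoxia response genes, so its share is no test of the motif. A match describes the letters in this window and is not a measured site.

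Glycolysis genes rose broadly. Of 28 enzymes and transporters, 21 were higher and 2 lower, with a median of 0.49. LDHA, which turns pyruvate into lactate, had 2621, 2638 and 2665 CPM in sgDDA1, against 1701, 1716 and 1674 CPM in sgCon (log2 fold change 0.64, SE 0.03, adjusted p = 4.27e-17). The glucose transporter SLC2A1 had 314 CPM in sgDDA1 and 229 CPM in sgCon (0.45, SE 0.03). PDK1, which holds pyruvate back from oxidation in the mitochondria, had 108, 107 and 109.8 CPM in sgDDA1, against 41.9, 44.7 and 40.4 CPM in sgCon (log2 fold change 1.35, SE 0.04, adjusted p = 4.64e-20). ENO2 (1.40), PFKFB4 (0.96), the lactate exporter SLC16A3 (0.81) and PGK1 (0.75) rose as well. PFKFB3, the better known relative of PFKFB4, stood at 92.0 CPM in sgDDA1 and 95.7 CPM in sgCon (-0.06, adjusted p = 0.167) and was not called. Among mTOR genes, 24 of 48 were higher and 10 lower (50% higher, 20.8% lower), against 26.5% higher and 26.1% lower among all genes. MTOR was at -0.23, RPTOR at 0.17 and the mTOR inhibitor DEPTOR at 0.86, the last at only 2.92 CPM in sgDDA1 and 1.61 CPM in sgCon.

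**Figure D3:**
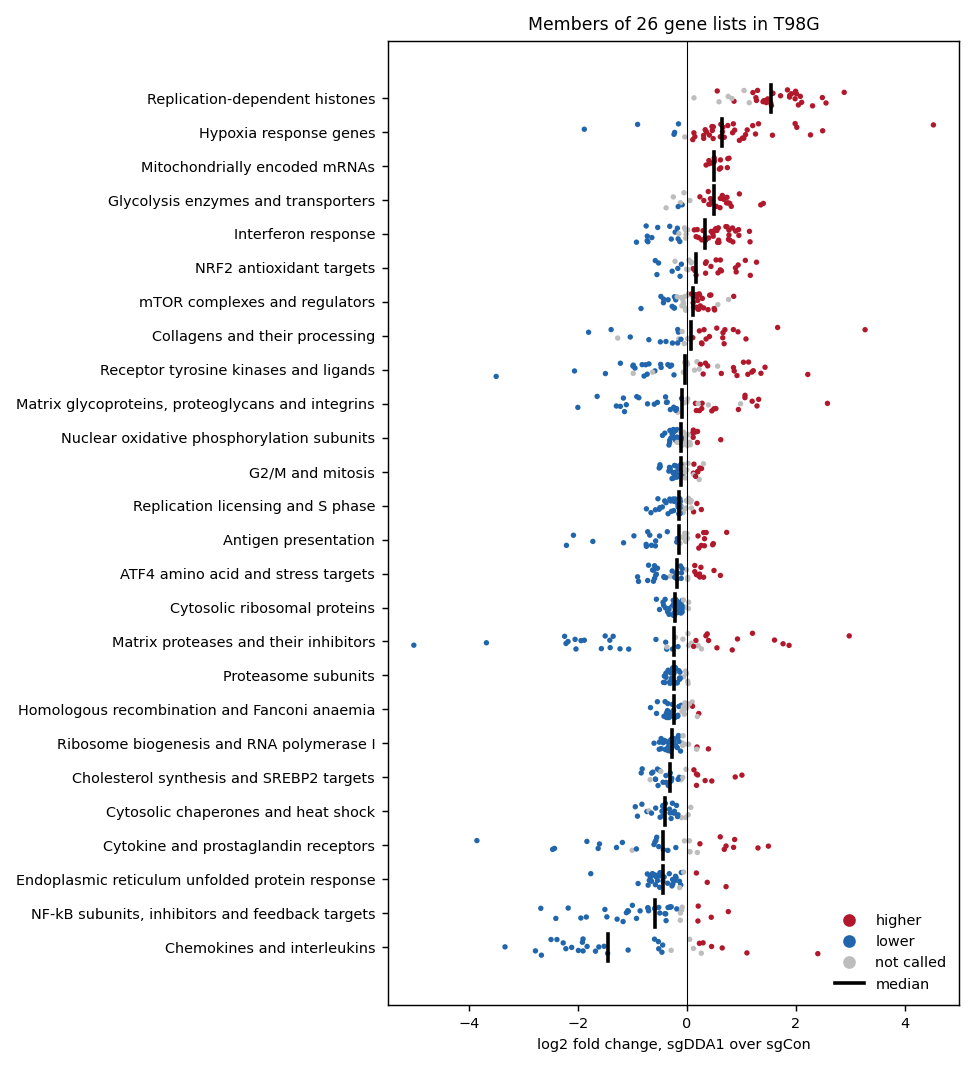
Points are the tested members of 26 gene lists, placed by log2 fold change of sgDDA1 over sgCon, with red for members called higher, blue lower and grey neither. Black bars are medians, and rows are ordered by them. Histones (1.55) and hypoxia genes (0.65) stand at the top, chemokines and interleukins (-1.46) and NF-kB genes (-0.60) at the bottom.

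Most transcripts of the NF-kB list fell. NF-kB dimers such as RELA with NFKB1 and RELB with NFKB2 switch on chemokines, survival genes and their own inhibitors. Of 37 NF-kB subunits, inhibitors and feedback targets, 29 fell and 4 rose (10.8% higher, 78.4% lower), with a median of -0.60. Among all genes tested 26.5% were higher and 26.1% lower. BIRC3, an inhibitor of apoptosis and feedback target, had 162, 161 and 157 CPM in sgDDA1, against 734, 714 and 732 CPM in sgCon (log2 fold change -2.18, SE 0.03, adjusted p = 9.44e-27). TRAF1, an adaptor of TNF receptors, had 17.8, 17.8 and 17.9 CPM in sgDDA1, against 96.2, 94.4 and 94.0 CPM in sgCon (log2 fold change -2.41, SE 0.04, adjusted p = 8.60e-25). TNFAIP3, the deubiquitinase A20, had 32.5, 32.1 and 29.4 CPM in sgDDA1, against 77.1, 75.9 and 75.9 CPM in sgCon (log2 fold change -1.28, SE 0.04, adjusted p = 9.15e-19). In each of the 3 genes the highest sgDDA1 library was below the lowest sgCon library. Groups did not overlap for 58.2% of all genes tested. The subunit RELB fell to 5.81 CPM in sgDDA1, against 12.6 CPM in sgCon (-1.11), the inhibitor NFKBIA to 75.1 CPM in sgDDA1 against 98.5 CPM in sgCon (-0.39), and the antioxidant enzyme SOD2 to 226 CPM in sgDDA1 against 627 CPM in sgCon (-1.47). TNIP3 (-2.69), TNFRSF9 (-1.85) and ICAM1 (-1.51) fell too.

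Chemokines and interleukins fell further. Of 33 tested, 23 were lower and 6 higher (18.2% higher, 69.7% lower), with a median of -1.46, and 18 of the falls were 2-fold or more. Among all genes tested 26.5% were higher and 26.1% lower, and 4.04% were lower by 2-fold or more. CCL5, which attracts T cells and monocytes, had 160.3, 145 and 136 CPM in sgDDA1, against 806, 784 and 723 CPM in sgCon (log2 fold change -2.39, SE 0.04, adjusted p = 4.35e-24). CXCL8, which attracts neutrophils, had 9.75, 10.2 and 8.19 CPM in sgDDA1, against 42.9, 44.4 and 44.5 CPM in sgCon (log2 fold change -2.23, SE 0.06, adjusted p = 4.64e-20). IL6 had 17.5, 14.8 and 14.5 CPM in sgDDA1, against 64.6, 61.3 and 60.8 CPM in sgCon (log2 fold change -2.00, SE 0.06, adjusted p = 3.52e-20). In all 3 genes the groups were far apart. CXCL11 (-2.68), IL18 (-2.28), IL32 (-2.12), CSF2 (-1.84) and CCL2 (-1.62) fell in the same way. PTGS2, the inducible cyclooxygenase that makes prostaglandin precursors, rose instead, with 84.5, 81.0 and 79.0 CPM in sgDDA1, against 16.1, 16.1 and 14.0 CPM in sgCon (log2 fold change 2.402, SE 0.05, adjusted p = 5.87e-23).

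The promoters of BIRC3 and CXCL8 are printed because both genes fell and hold a kB part, in capitals (same window and source as above).
BIRC3, chr11:102317234-102317533, plus strand: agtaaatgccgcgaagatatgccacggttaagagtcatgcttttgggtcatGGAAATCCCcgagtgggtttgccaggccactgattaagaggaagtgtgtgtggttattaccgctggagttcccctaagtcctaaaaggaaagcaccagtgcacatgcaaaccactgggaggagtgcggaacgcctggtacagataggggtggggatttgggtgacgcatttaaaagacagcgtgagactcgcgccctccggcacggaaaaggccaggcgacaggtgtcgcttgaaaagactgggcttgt
CXCL8, chr4:73740319-73740618, plus strand: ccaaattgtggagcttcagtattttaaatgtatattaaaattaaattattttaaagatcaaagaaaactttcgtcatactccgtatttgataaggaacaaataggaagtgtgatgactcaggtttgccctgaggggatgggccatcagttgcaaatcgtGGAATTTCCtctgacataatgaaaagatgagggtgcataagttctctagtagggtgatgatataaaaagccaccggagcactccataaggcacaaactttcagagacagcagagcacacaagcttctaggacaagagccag
At least 1 of the kB parts GGGACTTTC, GGAATTTCC and GGGATTTCC, on either strand, stood in 9 of 25 promoters of NF-kB genes called lower (36.0%), in 4 of 18 of chemokines and interleukins called lower (22.2%) and in 1.21% of all tested genes' promoters. In interferon genes the share was 8% of 25 called higher and 10% of 10 called lower. The NF-kB and chemokine lists hold genes known to respond to NF-kB, so their shares are no test of the motif. Neither a match nor its absence in the window says anything of the factor.

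Of 31 cytokine and prostaglandin receptors, 17 were lower and 8 higher (25.8% higher, 54.8% lower), so the share higher was near the 26.5% of all genes and the share lower above 26.1%. The prostaglandin receptors PTGER2 (-1.63) and PTGER4 (-1.61) fell with IL7R, and TNFRSF12A, the TWEAK receptor, fell to 71.8 CPM in sgDDA1, against 176 CPM in sgCon. IL1R1, the signalling receptor of interleukin 1, rose, with 115, 107 and 109 CPM in sgDDA1, against 46.2, 45.9 and 42.2 CPM in sgCon (log2 fold change 1.30, SE 0.04, adjusted p = 1.88e-19). IL6R rose to 18.2 CPM in sgDDA1, against 11.9 CPM in sgCon (0.61), and TNFRSF11B, the decoy receptor osteoprotegerin, to 1139 CPM in sgDDA1 against 404 CPM in sgCon (1.49).

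Interferon response genes moved mostly upward. Interferon receptors signal through JAK kinases to STAT proteins, which switch on antiviral genes. Of 52 such genes, 33 were higher and 13 lower (63.5% higher, 25% lower), with a median of 0.33. The share lower was near the 26.1% of all genes, and the share higher above 26.5%. The antiviral GTPase gene MX1 had 328, 318 and 307 CPM in sgDDA1, against 169.5, 166 and 160.1 CPM in sgCon (log2 fold change 0.95, SE 0.03, adjusted p = 1.25e-18), and IFIT1 had 499, 482 and 456 CPM in sgDDA1, against 339, 341 and 319 CPM in sgCon (log2 fold change 0.53, SE 0.03, adjusted p = 6.41e-13). The groups did not overlap in these genes, as in 58.2% of all genes tested. IRF7 (1.16), IFI27 (1.15), OAS1 (0.95), OAS2 (0.84), the DNA sensor IFI16 (0.89) and XAF1 (0.83) rose as well, and STING1, the adaptor of cytosolic DNA sensing, fell to 17.3 CPM in sgDDA1, against 32.9 CPM in sgCon (-0.93). CXCL11, counted above among the chemokines, is also known to respond to interferon.

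Antigen presentation genes had 17 of 34 lower and 10 higher (29.4% higher, 50% lower), against 26.5% higher and 26.1% lower among all genes. The class II invariant chain CD74 had 24.1, 25.6 and 23.9 CPM in sgDDA1, against 113, 118.3 and 111 CPM in sgCon (log2 fold change -2.22, SE 0.04, adjusted p = 4.35e-24), and the class II chain HLA-DRA fell by 2.09 from a low level. The checkpoint ligands CD274 (7.79 CPM in sgDDA1 against 15.3 CPM in sgCon, -0.98) and PDCD1LG2 (-1.73) fell. The class I light chain B2M (3517 CPM in sgDDA1 against 3583 CPM in sgCon, -0.03) was not called. HLA genes share sequence, and their counts may be split between copies.

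**Figure D4:**
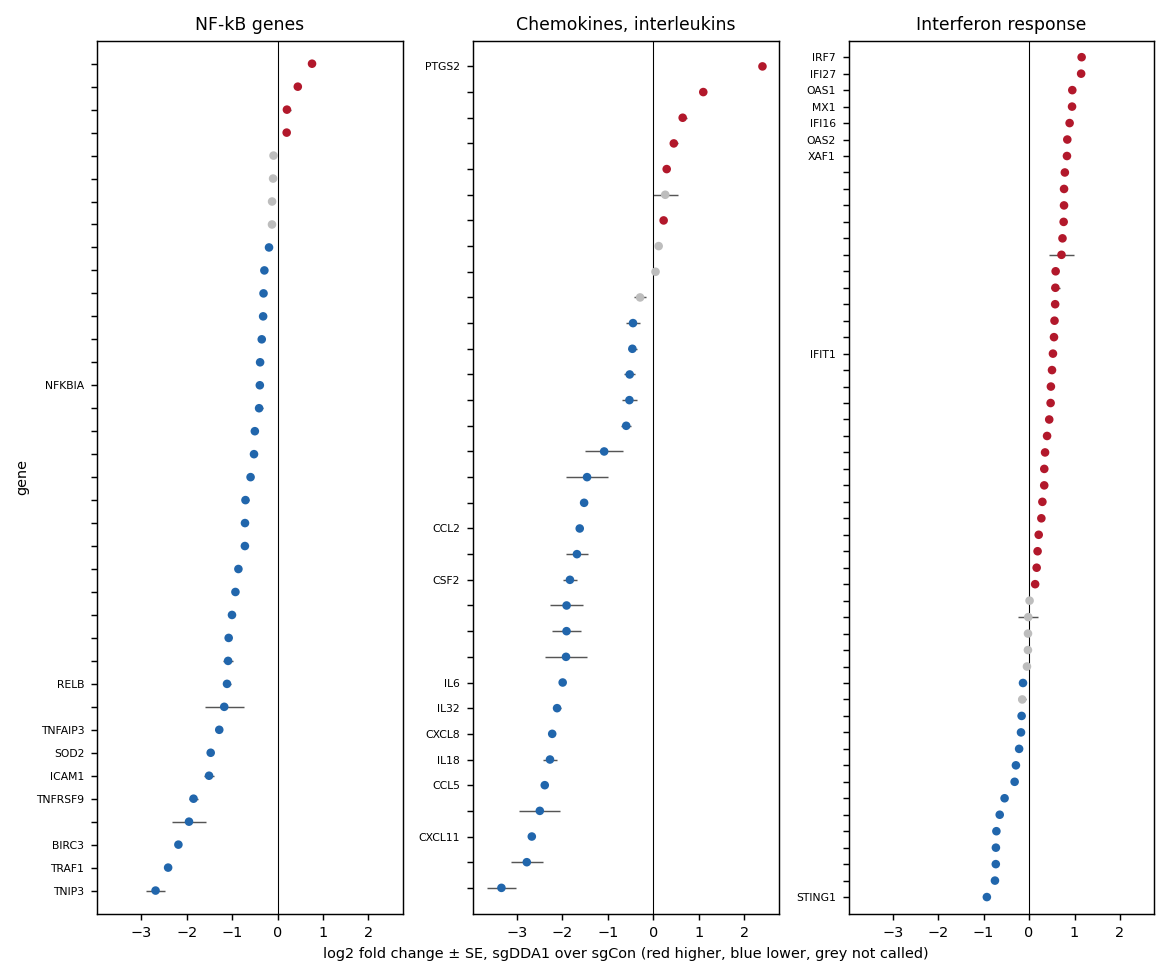
The tested members of 3 lists are ordered by log2 fold change of sgDDA1 over sgCon, with bars of 1 SE, red for members called higher, blue lower and grey neither. Rows of genes that the text names carry their symbol. 29 of 37 NF-kB genes and 23 of 33 chemokines and interleukins were called lower, and 33 of 52 interferon response genes higher. Among all genes tested 26.5% were higher and 26.1% lower.

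Genes of protein folding in the endoplasmic reticulum fell. The unfolded protein response acts through ATF6, through IRE1 with XBP1, and through PERK, and raises chaperones when folding is overloaded. Of 35 genes, 30 were lower and 3 higher (8.57% higher, 85.7% lower), with a median of -0.44. Among all genes tested 26.5% were higher and 26.1% lower. HSPA5, the chaperone BiP, had 772, 764 and 799.6 CPM in sgDDA1, against 1319, 1278 and 1236 CPM in sgCon (log2 fold change -0.72, SE 0.03, adjusted p = 6.58e-17). DNAJB9, a co-chaperone and XBP1 target, had 15.1, 15.6 and 16.7 CPM in sgDDA1, against 56.3, 57.5 and 47.7 CPM in sgCon (log2 fold change -1.77, SE 0.06, adjusted p = 2.65e-18). XBP1 had 136, 134 and 135 CPM in sgDDA1, against 204, 199 and 202 CPM in sgCon (log2 fold change -0.58, SE 0.03, adjusted p = 8.24e-15). The groups were apart in all 3 genes, as they were for 58.2% of all genes tested. SDF2L1 (-0.90), SELENOS (-0.73), SEC61B (-0.68) and DNAJC3 (-0.66) fell as well. The DNAJB9 promoter is printed because it had the largest fall of the group and holds CCACG, part of the endoplasmic reticulum stress element, in capitals (same window and source as above).
DNAJB9, chr7:108569624-108569923, plus strand: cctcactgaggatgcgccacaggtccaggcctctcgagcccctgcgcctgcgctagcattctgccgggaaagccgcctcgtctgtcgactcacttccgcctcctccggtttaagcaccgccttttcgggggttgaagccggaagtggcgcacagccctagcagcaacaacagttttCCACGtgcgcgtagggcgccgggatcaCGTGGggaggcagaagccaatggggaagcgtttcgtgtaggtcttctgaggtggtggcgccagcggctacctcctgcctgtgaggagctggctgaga
CCACG on either strand stood in 23 of 28 promoters of the genes called lower (82.1%) and in 48.3% of all tested genes' promoters. Among sets called higher it stood in 64.3% of 28 hypoxia, 62.5% of 8 ATF4 target and 80% of 5 protease promoters. Shares were 50% of 20 in glycolysis genes called higher, 42.9% of 7 in immediate early genes, 27.6% of 29 in histones and 24% of 25 in interferon genes. The folding list was written from known genes of the unfolded protein response, so its share is no test of the motif.

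Of 27 cytosolic chaperones and heat shock genes, 22 were lower and 0 higher (81.5% lower), with a median of -0.40. Among all genes tested 26.5% were higher and 26.1% lower. HSP90AA1, the inducible HSP90, fell to 746 CPM in sgDDA1, against 1402 CPM in sgCon (-0.91, SE 0.03), HSPA8 to 1972 CPM in sgDDA1 against 2939.8 CPM in sgCon (-0.58), and HSPH1 to 278 CPM in sgDDA1 against 464 CPM in sgCon (-0.74). HSPA1B (-0.83) shares its sequence with HSPA1A, so its count is uncertain. The machinery that makes and removes proteins fell by smaller amounts. Of 52 cytosolic ribosomal protein genes, 47 were lower and 0 higher (90.4% lower), with a median of -0.22, and RPSA (-0.56) and RPS27A (-0.51) moved most. Among all genes of at least 10 CPM, 53.7% were lower at lengths up to 1000 bases and 50.1% at 1000 to 2000 bases. The part of length was not tested. In ribosome biogenesis 29 of 38 fell and 2 rose, with NCL, nucleolin, at 1168 CPM in sgDDA1 and 1408 CPM in sgCon (-0.27) and UTP20 at -0.61. Of 34 proteasome genes, 29 were lower and 0 higher, and PSMC1 (-0.43), PSMB7 (-0.42) and PSMB2 (-0.41) led the falls.

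Amino acid and sterol genes leaned downward. Of 39 ATF4 targets, 24 were lower and 11 higher (28.2% higher, 61.5% lower), against 26.5% higher and 26.1% lower among all genes. The large neutral amino acid transporter SLC7A5 had 243, 249.7 and 252 CPM in sgDDA1, against 456, 459 and 467 CPM in sgCon (log2 fold change -0.89, SE 0.03, adjusted p = 4.17e-19), and its partner SLC3A2 fell to 284 CPM in sgDDA1, against 469 CPM in sgCon (-0.72). PSAT1, of serine synthesis, fell by 0.61. ATF4 itself rose to 740.2 CPM in sgDDA1, against 629 CPM in sgCon (0.23), as did GDF15 (0.61), and the stress factor DDIT3 stood at 16.0 CPM in sgDDA1 against 15.8 CPM in sgCon (0.01, adjusted p = 0.906). In cholesterol synthesis 19 of 32 genes fell and 8 rose (25% higher, 59.4% lower), with the share higher near that of all genes. NPC1, the endosomal cholesterol transporter, had 121, 122 and 119 CPM in sgDDA1, against 213, 219.9 and 216 CPM in sgCon (log2 fold change -0.84, SE 0.03, adjusted p = 4.30e-18). The transcription factor SREBF1 (0.88) and MYLIP, which degrades the LDL receptor (1.01), rose.

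Genes of homologous recombination and of replication fell modestly, while other repair lists moved less. Of 34 genes of homologous recombination and the Fanconi anaemia pathway, 23 fell and 2 rose, with a median of -0.25. BRCA1 had 151, 156 and 157 CPM in sgDDA1, against 205, 203 and 207 CPM in sgCon (log2 fold change -0.40, SE 0.03, adjusted p = 1.54e-11), and BRCA2 had 74.0, 78.0 and 73.9 CPM in sgDDA1, against 117, 99.5 and 113 CPM in sgCon (log2 fold change -0.55, SE 0.05, adjusted p = 1.05e-10). NBN, of the complex that senses double strand breaks, fell to 79.9 CPM in sgDDA1, against 127 CPM in sgCon (-0.67). The checkpoint kinase CHEK1 (-0.51) and its mediator CLSPN (-0.65) fell, in a list with 11 of 24 lower and 5 higher (20.8% higher, 45.8% lower), against 26.5% higher and 26.1% lower among all genes. End joining had 7 of 20 lower and 5 higher (25% higher, 35% lower). Base and nucleotide excision repair had 14 of 32 lower and 9 higher (28.1% higher, 43.8% lower). In the list of MGMT and mismatch repair, 4 of 10 were lower and 2 higher (20% higher, 40% lower). Their medians were -0.03, -0.08 and -0.05. MGMT, which repairs temozolomide damage, stood at 6.40 CPM in sgDDA1 and 6.51 CPM in sgCon (-0.02, SE 0.10) and was not called.

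Of 44 replication and S phase genes, 30 were lower and 3 higher. The G1/S cyclins CCNE1 (16.9 CPM in sgDDA1 against 28.4 CPM in sgCon, -0.75) and CCNE2 (-0.58), the licensing factor CDC6 (-0.54) and the phosphatase CDC25A (-0.66) had the largest falls. Cyclin D1, CCND1, had 240.0, 248 and 235 CPM in sgDDA1, against 401, 429 and 434 CPM in sgCon (log2 fold change -0.81, SE 0.03, adjusted p = 5.02e-17), and the inhibitors CDKN1A (-0.43) and CDKN2B (-0.94) also fell, whereas CDKN1C rose by 1.19 at a low level. Mitotic genes were mixed, with 23 of 41 lower and 7 higher (17.1% higher, 56.1% lower), against 26.5% higher and 26.1% lower among all genes. CCNA2 fell to 69.4 CPM in sgDDA1, against 99.0 CPM in sgCon (-0.51), and TOP2A rose by 0.20. MKI67 stood at 489 CPM in sgDDA1 and 530.0 CPM in sgCon (-0.11, adjusted p = 0.0102), a call lost without sgCon library 3 (adjusted p = 0.107) or sgDDA1 library 1 (adjusted p = 0.0943).

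Replication-dependent histone genes stood apart from the other S phase genes. Their mRNAs typically, though not always, end in a stem loop in place of a poly(A) tail. Of 35 tested, 29 were higher and 0 lower (82.9% higher), with a median of 1.55, and 27 of the rises were 2-fold or more. Among all genes tested 26.5% were higher and 26.1% lower, and 4.51% were higher by 2-fold or more. H2AC6 had 51.3, 52.1 and 52.3 CPM in sgDDA1, against 12.7, 12.0 and 13.1 CPM in sgCon (log2 fold change 2.04, SE 0.05, adjusted p = 2.33e-21), H2BC12 had 25.1, 23.7 and 23.5 CPM in sgDDA1, against 6.47, 6.10 and 7.05 CPM in sgCon (log2 fold change 1.88, SE 0.08, adjusted p = 4.98e-17), and the linker histone H1-2 had 32.0, 28.2 and 30.3 CPM in sgDDA1, against 6.84, 7.87 and 8.18 CPM in sgCon (log2 fold change 1.98, SE 0.08, adjusted p = 1.26e-17). All listed histones together summed to 212 to 233 CPM in sgDDA1 and 62.4 to 71.6 CPM in sgCon, and near-identical copies make single members uncertain. Among small noncoding RNAs without a poly(A) tail, SNORD3A (1.41) and RN7SL1 (1.31) were higher, SNORD17 (-0.76) was lower, and 4 of 7 tested were not called. Histone variants with a poly(A) tail had 6 of 9 higher and 2 lower (66.7% higher, 22.2% lower), with a median of 0.20. They summed to 1656 to 1673 CPM in sgDDA1 and 1322 to 1346 CPM in sgCon. The sources used here do not say how the libraries were selected for RNA type, and the part of that in the histone values was not tested. The H2BC12 and H2BC21 promoters are printed to compare the octamer ATTTGCAT (in capitals, either strand) in genes on different chromosomes.
H2BC12, chr6:27146809-27147108, minus strand: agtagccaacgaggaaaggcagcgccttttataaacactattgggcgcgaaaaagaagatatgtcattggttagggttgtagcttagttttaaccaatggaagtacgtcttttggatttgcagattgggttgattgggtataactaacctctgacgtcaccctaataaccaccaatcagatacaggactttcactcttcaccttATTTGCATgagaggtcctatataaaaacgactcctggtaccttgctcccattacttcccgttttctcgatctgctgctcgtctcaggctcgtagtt
H2BC21, chr1:149886633-149886932, minus strand: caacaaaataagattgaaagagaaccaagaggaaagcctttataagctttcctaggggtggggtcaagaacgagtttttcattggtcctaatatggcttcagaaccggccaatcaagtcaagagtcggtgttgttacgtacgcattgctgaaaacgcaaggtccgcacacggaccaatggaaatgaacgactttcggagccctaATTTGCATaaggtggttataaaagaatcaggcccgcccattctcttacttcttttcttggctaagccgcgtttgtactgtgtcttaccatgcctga
The octamer stood in 13 of 29 promoters of histone genes called higher (44.8%) and in 1.43% of all tested genes' promoters. It was chosen as a known element of histone promoters, so this share is no test of the motif. Histone genes that were not called were not counted, so the share is not tied to the rise.

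All 13 mitochondrially encoded mRNAs rose, with a median of 0.50. Together they summed to 4.82% to 4.96% of scaled counts in sgDDA1, against 3.22% to 3.53% in sgCon. MT-ND4, a complex I subunit, had 7269, 7167 and 7536 CPM in sgDDA1, against 4641, 4074 and 4367 CPM in sgCon (log2 fold change 0.75, SE 0.03, adjusted p = 4.68e-16). Of 52 nuclear genes of oxidative phosphorylation, complex II included, 25 were lower and 7 higher (13.5% higher, 48.1% lower). Among all genes 26.5% were higher and 26.1% lower. The antioxidant targets of NRF2 had 18 of 31 higher and 7 lower (58.1% higher, 22.6% lower). NQO1, a quinone reductase, had 2996, 3021 and 3220.1 CPM in sgDDA1, against 2076, 2013 and 1965 CPM in sgCon (log2 fold change 0.61, SE 0.03, adjusted p = 2.61e-15), and NFE2L2, which encodes NRF2, rose to 647 CPM in sgDDA1, against 418 CPM in sgCon (0.63). AKR1C1 (0.94), AKR1C2 (1.16) and AKR1C3 (1.28) also rose, but are close copies whose reads may be shared. HMOX1, haem oxygenase, fell by 0.52.

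Growth factor receptors and ligands changed in both directions. Of 45 tested, 16 were higher and 19 lower (35.6% higher, 42.2% lower), against 26.5% higher and 26.1% lower among all genes. EGFR had 235, 247 and 235 CPM in sgDDA1, against 400.0, 408 and 406 CPM in sgCon (log2 fold change -0.76, SE 0.03, adjusted p = 2.26e-17), and MET fell to 123 CPM in sgDDA1, against 185 CPM in sgCon (-0.59). The ligands FGF2 (68.1 CPM in sgDDA1 against 159 CPM in sgCon, -1.22), FGF1 (-2.07) and VEGFC (-1.50) fell. PDGFRA rose to 5.00 CPM in sgDDA1, against 2.19 CPM in sgCon (1.19), ROR2 by 1.36 and MERTK by 1.12, all at low levels.

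Matrix and protease genes were likewise divided. Fibronectin, FN1, had 1789, 1856 and 1985 CPM in sgDDA1, against 1001, 971 and 957 CPM in sgCon (log2 fold change 0.94, SE 0.03, adjusted p = 1.41e-18). The basement membrane collagens COL4A1 (103 CPM in sgDDA1 against 212 CPM in sgCon, -1.04) and COL4A2 (-0.70) fell, while COL4A5 rose to 38.5 CPM in sgDDA1 against 12.1 CPM in sgCon (1.66). Tenascin C, TNC (-1.23), the thrombospondin THBS1 (-1.30) and the laminin chain LAMB3 (-2.01) fell. Among matrix proteases and inhibitors, 21 of 42 were lower and 13 higher (31.0% higher, 50% lower), against the same shares. The collagenase MMP1 had 34.7, 32.8 and 36.7 CPM in sgDDA1, against 137, 135 and 129.7 CPM in sgCon (log2 fold change -1.95, SE 0.04, adjusted p = 5.87e-23), MMP3 fell by 2.19, and the urokinase PLAU fell to 183 CPM in sgDDA1, against 429.7 CPM in sgCon (-1.23). MMP2 (0.16) and MMP14 (0.35) rose slightly. N-cadherin, CDH2, had 30.9, 31.5 and 30.1 CPM in sgDDA1, against 83.8, 83.7 and 86.7 CPM in sgCon (log2 fold change -1.46, SE 0.04, adjusted p = 1.42e-20).

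Long noncoding RNAs leaned upward. Of 3315 tested, 19.8% were higher and 10.2% lower, against 29.99% higher and 32.6% lower among the 13876 coding genes. NEAT1, the scaffold of nuclear paraspeckles, had 2799.9, 2583 and 2456 CPM in sgDDA1, against 867, 826 and 831 CPM in sgCon (log2 fold change 1.63, SE 0.04, adjusted p = 1.07e-22), and MALAT1, another nuclear RNA, rose by 0.74. MIR210HG, the host of a hypoxia-induced microRNA, had 10.2, 9.80 and 9.65 CPM in sgDDA1, against 2.44, 2.57 and 2.17 CPM in sgCon (log2 fold change 2.04, SE 0.11, adjusted p = 1.62e-14). ZFHX4-AS1 (2.41) and ADAMTS19-AS1 (2.05) also rose. MIR3142HG, the host gene region of the NF-kB-linked microRNA-146a, had 0.812, 1.21 and 0.908 CPM in sgDDA1, against 4.17, 4.04 and 3.97 CPM in sgCon (log2 fold change -2.06, SE 0.17, adjusted p = 8.77e-11), and LINC00632 (-2.19), LINC00842 (-2.17) and LASTR (-2.00) fell. The sources used here do not state if counting was stranded, so antisense genes cannot be told apart from reads of their overlapping partners.

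The share of calls differed with transcript level and length. Genes above 1000 CPM were 56.9% higher and 30.6% lower of 72, and genes of 100 to 1000 CPM were 34.8% higher and 43.1% lower. Among genes of at least 10 CPM, the share called higher was 18.7% for lengths up to 1000 bases and 40.8% for lengths above 12000 bases, while the share called lower was 53.7% and 32.2%. The shortest class held 123 genes. The part of length in the values of short genes, such as those of ribosomal proteins, was not tested. On 6 nuclear chromosomes the shares differed by more than 10 percentage points. Chromosomes 13 (15.9% higher, 42.1% lower) and 10 (19.1% higher, 36.4% lower) leaned downward, and 16 (30.6% higher, 16.6% lower), 17 (33.0% higher, 18.3% lower), 19 (32.7% higher, 19.8% lower) and 22 (31.7% higher, 21.4% lower) upward. These shares describe the calls, and no test was made of them.

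**Figure D5:**
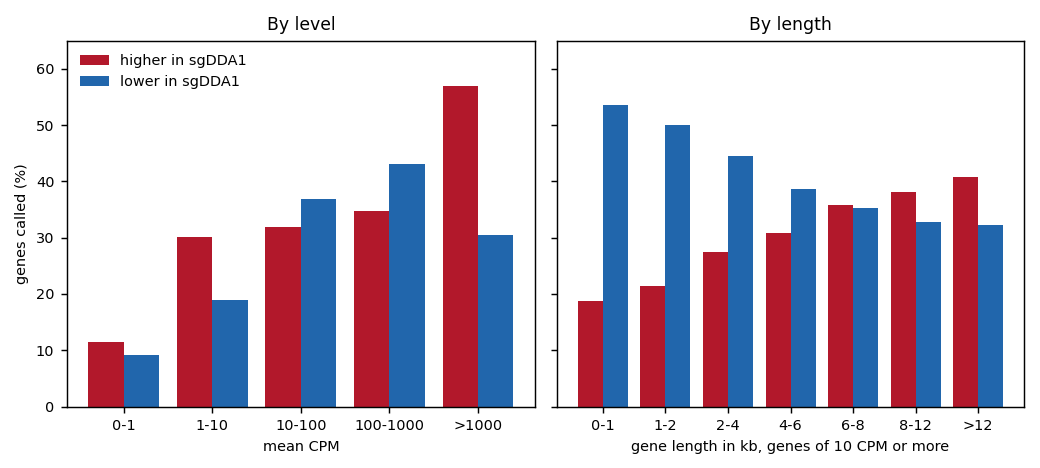
Bars give the percentage of genes called higher (red) and lower (blue) in sgDDA1, on an axis from 0. The left panel bins genes by mean CPM and the right panel bins genes of 10 CPM or more by the length behind the deposited FPKM values. With length the share called higher goes up from 18.7% to 40.8%.

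The response of T98G was then tested against that of LN229, another glioblastoma line of the series that received the same pair of labels. In a fit of these 12 libraries 9044 of 23082 genes (39.2%) had a response that differed between the lines. For DDA1 the log2 fold change was -0.19 in T98G and -0.52 in LN229, a difference of 0.33 (SE 0.07, adjusted p = 0.000209). COL3A1 and SERPING1, which rose in T98G by 3.27 and 2.98, had 2.76 and 2.43 in LN229, and these differences did not pass the test (adjusted p = 0.118 and 0.0777). KIT was -3.51 in T98G and 0.67 in LN229, a difference of -4.18 (adjusted p = 1.71e-21). SLC6A15 was 2.56 in T98G and -0.01 in LN229, where it stood at 142 CPM in sgDDA1 and 143 CPM in sgCon. Several lists differed for most of their members. Of 52 ribosomal protein genes, 48 had a response lower in T98G and 1 a response higher, with medians of -0.22 in T98G and 0.20 in LN229. Among ATF4 targets 31 of 39 were lower in T98G and 3 higher, with medians of -0.18 in T98G and 0.61 in LN229. For histones 23 of 35 were higher in T98G and 0 lower, with medians of 1.55 in T98G and -0.68 in LN229. For NF-kB genes 23 of 37 were lower in T98G and 4 higher, with medians of -0.60 in T98G and 0.06 in LN229. Other lists had medians of the same sign in both lines. Cytosolic chaperones had -0.40 in T98G and -0.41 in LN229, and proteasome genes -0.24 and -0.40. Endoplasmic reticulum folding genes had -0.44 in T98G and -0.27 in LN229, and hypoxia genes 0.65 and 0.28. The response still differed for 16 of 27, 19 of 34, 25 of 35 and 35 of 41 members of these lists.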

How the data were processed

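The tools listed in the submitters' processing notes, given there with no role, are fastp (0.19.6), STAR (2.4.0), HTSeq (0.12.4) and DESeq2, and the build is GRCh38. The authors deposited raw counts per gene and FPKM values, and the FPKM gave gene lengths. Strand and RNA selection are not given in the sources used here. Among counts between 1 and 19, 61.4% to 62.1% were even, so halved counts were tried. Genes were filtered with filterByExpr, given TMM factors and compared on the 6 T98G libraries by edgeR's quasi-likelihood test (edgeR 4.0.16, R 4.3.3), with Benjamini-Hochberg adjustment over 19438 genes and calls at 0.05. SE is the standard error of a log2 fold change. The response difference used the 12 T98G and LN229 libraries. Gene types and positions came from GENCODE 29. The edgeR fit was tried on data simulated for the T98G comparison (19438 genes, 4 fold sizes in 50 genes each). The filter on low counts was not part of that trial, and the changed genes had at least 1 CPM in sgCon. There 82% of 1.5-fold and 94% of 2-fold changes were recovered, with 14 of 19238 unchanged genes called. Far fewer genes changed there than the 52.6% called in T98G, so scaling under a broad change was not tested. DESeq2 1.42.0 and limma 3.58.1 served as alternatives, with other scalings, filters and fits, a replicate block and each library left out.

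The comparison and the 64 gene lists were chosen with earlier results of these data known. Genes named are DDA1, the 12 largest rises and falls among called protein-coding genes of at least 1 CPM whose groups do not overlap, the 8 largest of each above 100 CPM, the 4 largest of each among long noncoding RNAs, and in each list its preset key genes and up to 8 called members with the largest change. Y-linked genes were not named, and some genes that this rule selects are not reported here.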

Additional observations from a re-analysis of the deposited data

Results flagged for a closer look

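The response to the guide differed between T98G and LN229 for 22 of the 25 genes first named, by the edgeR test of the difference in 12 libraries (adjusted p under 0.05). Of these genes, 24 were chosen for the size of their change in T98G, so a difference from another line is nearly fixed by that choice, and the count is not to be read against the 39.2% of all genes or as line specificity. The values given are T98G minus LN229 on the log2 scale.

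The response was higher in T98G for 10 genes, which were DDA1 (0.33), FGG (4.46), CA9 (5.17), PI15 (3.03), RANBP3L (2.38), CBLN2 (3.97), H1-3 (2.73), ADGRV1 (2.61), ITGB8 (1.81) and SLC6A15 (2.57). It was lower in T98G for 12 genes, which were FDCSP (-7.13), SERPINB7 (-5.65), AMTN (-4.32), GPR183 (-3.29), ADGRL4 (-3.22), FGFBP1 (-4.21), KIT (-4.18), SLC16A6 (-4.05), SLC28A3 (-4.72), ST8SIA4 (-4.27), MARCHF4 (-5.14) and TMEM200C (-3.50). For DDA1 the higher value means a smaller fall in T98G. COL3A1, SERPING1 and SSPOP did not pass that test.

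The difference for FGG did not hold without LN229 sgCon library 1, where it was 0.13 (adjusted p = 0.666). In LN229 FGG stood at 0.0808 CPM in sgDDA1 and 0.0326 CPM in sgCon, and CA9 at 0.0107 CPM in sgDDA1 and 0.0248 CPM in sgCon, all near the floor. Others were well measured in both lines, such as KIT at 38.3 CPM in sgDDA1 and 24.1 CPM in sgCon of LN229, and ADGRV1 at 25.2 CPM in sgDDA1 and 24.0 CPM in sgCon. The groups have 3 libraries each, so single libraries were not tested for standing apart.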

How the results depend on the processing

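Leaving out each T98G library in turn gave 9468 to 9629 calls, 4692 to 4840 higher and 4713 to 4898 lower, and 838 to 925 higher and 766 to 877 lower at 2-fold. Between 9160 and 9265 of them were shared with the 10215 calls, all in the same direction. DDA1 was called in each, at -0.24 to -0.16. Scaling, filter, halving and tool alternatives gave 9427 to 10370 calls, and upper-quartile scaling, chosen after seeing the data, 10210. With all 18 libraries, where some U118-MG libraries resemble LN229, 5402 genes were called (2857 higher, 2545 lower), DDA1 was -0.20 (adjusted p = 0.197) and 4227 responses differed from LN229. The cause was not tested. A test against a fold of 1.2 called 4788 (2586 higher, 2202 lower), since it asks for a larger change, and DDA1 at -0.19 was not among them (adjusted p = 1). A filter of 1 CPM in 3 libraries left 14474 genes, 476 higher and 430 lower at 2-fold. Without LN229 sgCon library 1, which is deeper than the rest, 8421 responses differed. The replicate numbers did not pair the samples (correlations 0.0085, -0.020 and -0.0090), and a fit with the replicate block called 10066 genes, 9981 of them shared.

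Values near 0 that were not called changed sign. MGMT was 0.0047 with upper-quartile scaling, where B2M was 0.0014, and -0.079 to 0.029 with a library left out. DDIT3 was -0.034 with library totals and -0.049 to 0.098 with a library left out. The SSPOP difference from LN229 was -0.0049 with DESeq2 size factors and -0.080 without LN229 sgCon library 1. Depth limited genes near the floor of 0.0614 CPM, whose folds depend on few counts.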

Other observations

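Clustered protocadherins, cell surface proteins that give neurons their identity, were higher in sgDDA1. They were noticed after their values were seen, so the counts are a description. Of 14 beta genes tested, 13 were called higher and 0 lower, with a median of 0.99. Of 17 gamma A and B genes, 11 were higher and 0 lower, with a median of 0.72. Among all genes tested 26.5% were higher and 26.1% lower. PCDHB2 had 2.29, 2.15 and 2.49 CPM in sgDDA1, against 1.38, 1.67 and 1.18 CPM in sgCon (log2 fold change 0.71, SE 0.18, adjusted p = 0.00182), and PCDHB14 had 14.5, 14.2 and 14.7 CPM in sgDDA1, against 7.49, 7.87 and 7.60 CPM in sgCon (log2 fold change 0.92, SE 0.08, adjusted p = 3.09e-10). Of the 3 gamma C genes at the end of the cluster, 1 was called higher, PCDHGC3, at 94.0 CPM in sgDDA1 and 79.7 CPM in sgCon (0.24, adjusted p = 8.25e-06). Gamma genes share their last exons, so their counts may be split between copies.

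Neighbouring genes did not always move together. In the histone region of chromosome 6, a run of 25 genes of at least 1 CPM between 26055787 and 27146798 (GRCh38) had 17 higher and 5 lower. Within it the butyrophilins BTN3A2 (-0.29), BTN3A1 (-0.47) and BTN3A3 (-0.41), relatives of B7 proteins, were lower. FDCSP and AMTN start 292 kb apart with 4 coding genes between them. Those 4 genes, CSN3, SMR3A, OPRPN and MUC7, were at or under 0.0311 CPM in both groups, and UTP3, beyond AMTN, stood at 45.6 CPM in sgDDA1 and 42.0 CPM in sgCon (0.12, adjusted p = 0.0339, or 0.243 without sgCon library 1). These regions were chosen after their values were seen.

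Other lists gave single large changes. The early response factors EGR2 (-2.43) and NR4A3 (-2.34) fell, while EGR1 rose to 2.41 CPM in sgDDA1, against 1.25 CPM in sgCon (0.94). FOS was 0.78 (adjusted p = 0.0134), and 0.63 (adjusted p = 0.0839) without sgDDA1 library 2. Among guidance genes EPHA5 (-2.71) and PLXNA2 (-2.24) fell and SEMA3D (2.26) rose. The WNT antagonist DKK1 fell to 11.6 CPM in sgDDA1, against 33.8 CPM in sgCon (-1.54), and AXIN2 rose by 0.74. The zinc transporters SLC39A8 (-1.45) and SLC30A1 (-0.88) and the metallothionein MT2A (-0.38) fell.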
